A study of Mus musculus with 6 samples.

Results

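The core circadian clock genes were described here in 6 mouse heart libraries as 10 genes, matched by symbol among the 24346 genes with an expression value: Arntl (also named Bmal1), Clock, Npas2, Per1, Per2, Per3, Nr1d1, Nr1d2, Ciart and Dbp. They were chosen by their measured values, because an earlier look at the same libraries had shown them to differ between libraries deposited under names with "3w" and libraries deposited under names with "heart". Wild-type male C57BL/6J mice received a normal chow diet (C group), a diet high in fat, cholesterol and sucrose with bile acid (N group, a dietary model of steatohepatitis), or that diet together with pemafibrate at 0.1 mg/kg, a selective modulator of PPARα (NP group), and each group held 2 libraries. All labels give 3 weeks of feeding, whereas the methods of the study give a longer period. In the N and NP groups, replicate 1 (N1, NP1) has a heart-named file and replicate 2 (N2, NP2) a 3w-named file, while both C libraries (C1, C2) carry neither word; what the names mark is not given in the sources used here, and neither is the age of the mice, the time of day at which tissue was taken, or whether the 2 libraries of a group came from separate mice. The tissue is labelled heart, although the extraction text speaks of liver.

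The circadian clock is a feedback loop of transcription that runs in nearly every cell. ARNTL pairs with CLOCK or its relative NPAS2, binds E-box sequences and switches on the Per genes, Nr1d1, Nr1d2, Dbp and Ciart; the PER and CIART proteins then hold the activators back, and the receptors encoded by Nr1d1 and Nr1d2 (REV-ERBα and REV-ERBβ) repress Arntl, Npas2 and Clock through ROR elements. DBP acts further out, on D-box sequences. In the heart of a mouse the activator genes and the Per, Nr1d and Dbp genes are therefore known to peak at different times of day, and the cardiac clock is known to pace genes of fuel use and ion channels.

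The sequences by which this loop closes on itself were looked up in front of the members, in RefSeq promoter windows of GRCm38.p6 (mm10) that run from 250 bases before to 50 bases after a start site. The table held 13 windows for 9 of the 10 genes and no entry for Per2. The stretches below were chosen because they hold a match, which is given in capitals. Up to 40 bases outside the exons are shown on each side, or 10 on each side for the match inside the first exon of Arntl, read 5′ to 3′ on the strand of the gene. The stretch of Per1 lies inside the gene, before an internal start site and outside its exons.
Ciart, chr3:95882252-95882384, minus strand, E-box CACGTG: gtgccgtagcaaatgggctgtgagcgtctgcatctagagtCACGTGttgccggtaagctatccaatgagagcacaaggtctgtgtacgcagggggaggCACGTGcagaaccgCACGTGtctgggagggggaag
Per1, chr11:69098743-69098828, plus strand, E-box CACGTG: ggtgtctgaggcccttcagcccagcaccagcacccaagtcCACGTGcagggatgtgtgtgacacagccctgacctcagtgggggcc
Nr1d1, chr11:98775378-98775445, minus strand, E-prime box AACGTG: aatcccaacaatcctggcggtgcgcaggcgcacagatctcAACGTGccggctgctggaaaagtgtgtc
Per3, chr4:151044776-151044910, minus strand, D-box TTATGTAA: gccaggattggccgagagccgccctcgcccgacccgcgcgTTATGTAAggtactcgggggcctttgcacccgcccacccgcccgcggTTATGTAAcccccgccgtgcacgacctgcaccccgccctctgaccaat
Arntl, chr7:113207531-113207557, plus strand, ROR half-site TAGGTCA: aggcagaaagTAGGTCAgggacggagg

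Ciart held 3 E-boxes, whose first bases lie 116, 58 and 44 bases before the start site, and Per1 held 1, 166 bases before it. The E-box CACGTG, which reads the same on both strands, occurred in 7.15% of all 32851 windows. The E-prime box, searched as CACGTT or AACGTG, was found in front of Nr1d1, 28 bases before the start, and in 4.68% of all windows. Per3 held 2 copies of the D-box, searched as TTATGTAA or TTACATAA, at 205 and 158 bases before the start; this motif was in 0.938% of all windows. The ROR half-site, searched as TAGGTCA or TGGGTCA and their reverse complements TGACCTA or TGACCCA, began at base 31 of the transcribed part in 1 window of Arntl and was in 6.45% of all windows. No form of these 4 motifs overlaps another form in the stretches shown. The windows of Clock, Npas2, Nr1d2 and Dbp held none of these letters, which says nothing of sites elsewhere in those genes.

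Expression was given by the authors as FPKM, in which the reads of a gene are scaled by its length and by the depth of the library, so that levels can be set side by side between genes. All 10 genes passed the filter of a mean of at least 0.5 FPKM, as 12923 genes did. The libraries held an estimated 21610000 to 26240000 reads in the C group and 8230000 to 8780000 reads in the N and NP groups, an estimate made from the size of the steps between low values. The lowest member value, Ciart in N1, then rests on about 11.7 reads, and the next lowest, Npas2 in NP2, on about 28.3. Cardiomyocyte markers were abundant in every library, with a summed level of 45211 to 63943 FPKM over 8 genes. Markers of other tissue differed between libraries: 6 atrial genes summed to 179 to 314 FPKM in the C group, 3680 to 3767 in the heart-named and 5194 to 6219 in the 3w-named libraries, 7 adipocyte genes to 2.09 to 9.38, 16.0 to 190 and 87.4 to 104, and 6 hepatocyte genes to 28.9 in C1 and 418 in C2 against 1.15 to 5.51 elsewhere. No gene of these 3 lists was at 0 in every library, though Sln and Bmp10 (atrial) and Plin1, Lep and Ucp1 (adipocyte) were at 0 in C1, and the part of these tissues in the values below was not tested. In bulk tissue, fewer cells of a type and less RNA per cell cannot be told apart.

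Arntl (chr7:113207465-113314126, plus strand), which encodes a partner of CLOCK and NPAS2, was at 7.56 FPKM in C1, 7.87 in C2, 14.8 in N1, 2.05 in N2, 15.7 in NP1 and 1.996 in NP2. The heart-named libraries were highest, the 3w-named lowest, and both C libraries stood between them without overlap. In FPKM, the heart-named library exceeded the 3w-named one 7.23-fold in the N group and 7.89-fold in the NP group, while the C libraries differed 1.04-fold. Npas2 (chr1:39193731-39363236, plus strand), the relative of Clock, had the same order at a lower level, with 1.61 and 1.47 FPKM in C1 and C2, 4.52 in N1, 0.921 in N2, 3.25 in NP1 and 0.826 in NP2. The kinds differed 4.91-fold (N) and 3.94-fold (NP). Clock (chr5:76209868-76304792, minus strand), known in many tissues as the activator with the weakest rhythm, kept the order over a much smaller span, at 9.43, 9.48, 10.7, 7.22, 10.4 and 7.46 FPKM in C1, C2, N1, N2, NP1 and NP2. Its heart-named libraries exceeded the 3w-named ones 1.49-fold in the N group and 1.40-fold in the NP group. Clock and Arntl thus followed the same order of libraries at unequal size, and Clock stood above Arntl in both C and both 3w-named libraries and below it in both heart-named ones.

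**Figure D1:**
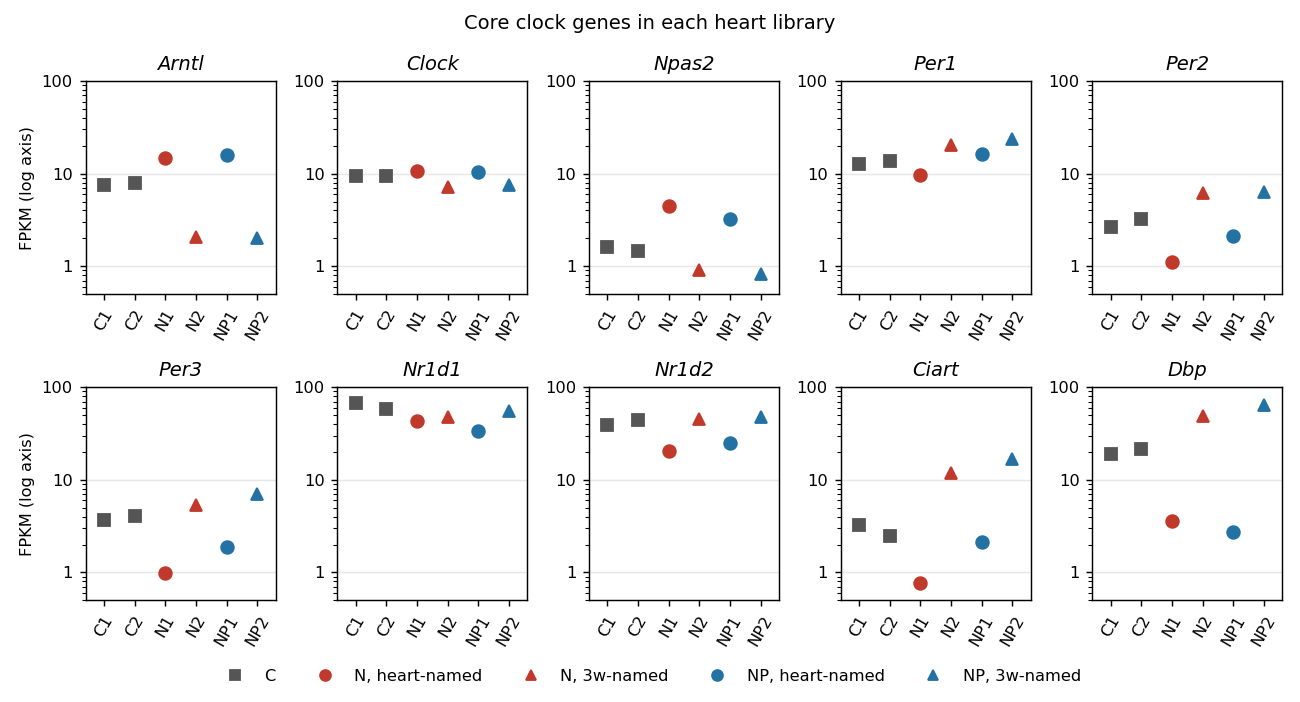
FPKM of the 10 core clock genes in each library on a log axis, 1 panel per gene and 1 point per library: grey squares C, red N, blue NP, with circles for heart-named and triangles for 3w-named libraries. Arntl and Npas2 are high in N1 and NP1 and low in N2 and NP2, Dbp and Ciart the other way round, and for 8 of 10 genes both C libraries lie between the kinds.

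The Per genes encode the repressors at the centre of the loop. Per2 (chr1:91415982-91459324, minus strand) was at 2.68 and 3.20 FPKM in C1 and C2, 1.10 in N1, 6.22 in N2, 2.12 in NP1 and 6.26 in NP2. Per3 (chr4:151003652-151044665, minus strand), which is dispensable for the basic rhythm, was at 3.65 and 4.06 FPKM in the C libraries, 0.9749 in N1, 5.35 in N2, 1.87 in NP1 and 7.002 in NP2. In both genes the 3w-named libraries were highest and the heart-named lowest, with the C libraries in between, and 3w-named exceeded heart-named FPKM 5.63-fold (N) and 2.95-fold (NP) for Per2 and 5.49-fold and 3.73-fold for Per3. Per1 (chr11:69095217-69109960, plus strand), which also answers directly to glucocorticoids and other acute signals, was at 12.6 and 13.7 FPKM in the C libraries, 9.71 in N1, 20.3 in N2, 16.1 in NP1 and 23.7 in NP2. Here the C libraries were not between the kinds, since NP1 lay above them; the 3w-named libraries still exceeded both heart-named ones, 2.09-fold in the N group and 1.47-fold in the NP group.

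The 2 REV-ERB genes, which encode the repressors of Arntl, did not follow each other closely. Nr1d2 (chr14:18204054-18239127, minus strand) was at 38.8 and 43.8 FPKM in C1 and C2, 20.7 in N1, 45.8 in N2, 25.2 in NP1 and 47.2 in NP2. Its heart-named libraries were the low ones, and the C libraries lay just under the 3w-named ones. Nr1d1 (chr11:98767932-98775333, minus strand) was the most abundant member in every C and heart-named library, at 68.0 and 58.7 FPKM in C1 and C2, 43.6 in N1, 48.0 in N2, 33.3 in NP1 and 54.7 in NP2. It was highest in the C libraries, and the N pair differed only 1.10-fold, less than the 1.16-fold between the C libraries; the NP pair differed 1.64-fold. In the GENCODE M21 annotation, 263 of the 3077 exon bases of Nr1d1 are shared with exons of Thra on the other strand, the gene of a thyroid hormone receptor; Thra was at 41.7, 41.5, 52.1, 44.0, 52.3 and 43.9 FPKM in C1, C2, N1, N2, NP1 and NP2. The library kit keeps the strand, but whether the counting used it is not given in the sources used here.

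Dbp (chr7:45705088-45710203, plus strand), a transcription factor of the PAR bZIP family that carries the clock's output to metabolic genes, had the widest range of the members. Its level was 19.1 and 21.4 FPKM in C1 and C2, 3.62 in N1, 48.8 in N2, 2.72 in NP1 and 64.4 in NP2. It was the lowest in the heart-named and the highest in the 3w-named libraries with the C libraries between, and the kinds differed 13.5-fold in the N group and 23.7-fold in the NP group, against 1.12-fold between the C libraries. Ciart (chr3:95878503-95882251, minus strand), a repressor of the CLOCK and ARNTL pair, was at 3.26 and 2.44 FPKM in C1 and C2, 0.764 in N1, 11.9 in N2, 2.14 in NP1 and 16.7 in NP2, and the kinds differed 15.6-fold in the N group and 7.79-fold in the NP group. The order was that of Dbp, although NP1 came close to the lower C library. Dbp shares 539 of its 2993 exon bases with Sphk2 on the opposite strand, the gene of a sphingosine kinase; Sphk2 was at 11.2, 11.1, 9.78, 17.9, 11.1 and 22.6 FPKM in C1, C2, N1, N2, NP1 and NP2, and so was also higher in the 3w-named libraries. The part of the shared exons in either value was not tested. Arntl shares 33 of 7523 exon bases with Gm45355, which had no value in the tables, and no other member shared exon bases with another gene.

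Counted over the members, 7 of 10 were higher and 3 of 10 lower in both 3w-named than in both heart-named libraries, as were 25.5% and 27.5% of all 12923 genes tested, so that separation alone was common. On the scale of log2(FPKM + 1), 4 were higher without overlap by a mean difference of at least 1 (Dbp 3.78, Ciart 2.68, Per3 1.58 and Per2 1.499), where 0.511% of all genes were, and 2 were lower (Arntl -2.43 and Npas2 -1.37), where 0.395% of all genes were. Just inside the limit stood Npas2 and just outside it Nr1d2, at 0.99, followed by Per1 at 0.76, Clock at -0.47 and Nr1d1 at 0.42. A limma term for the kind of name, with 2 residual degrees of freedom, would call 9 of the 10 and 9% of all genes, but 5 members with 1 prior for all genes, 2 with no filter on low values, 0 with only the N and NP libraries and 0 to 3 with any library left out. These counts describe the choice of the genes and are no test of them, because the same contrast chose them. The median size of the difference, regardless of sign, was 1.43 over the members and 0.18 over all genes. The differences had the same sign in both groups. They were 3.43 (N) and 4.14 (NP) for Dbp, -2.37 and -2.48 for Arntl and 2.88 and 2.49 for Ciart, but 0.99 and 0.53 for Per1 and 0.14 and 0.70 for Nr1d1, whereas the C2 minus C1 difference of the 10 genes lay between -0.31 (Ciart) and 0.19 (Per2).

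**Figure D2:**
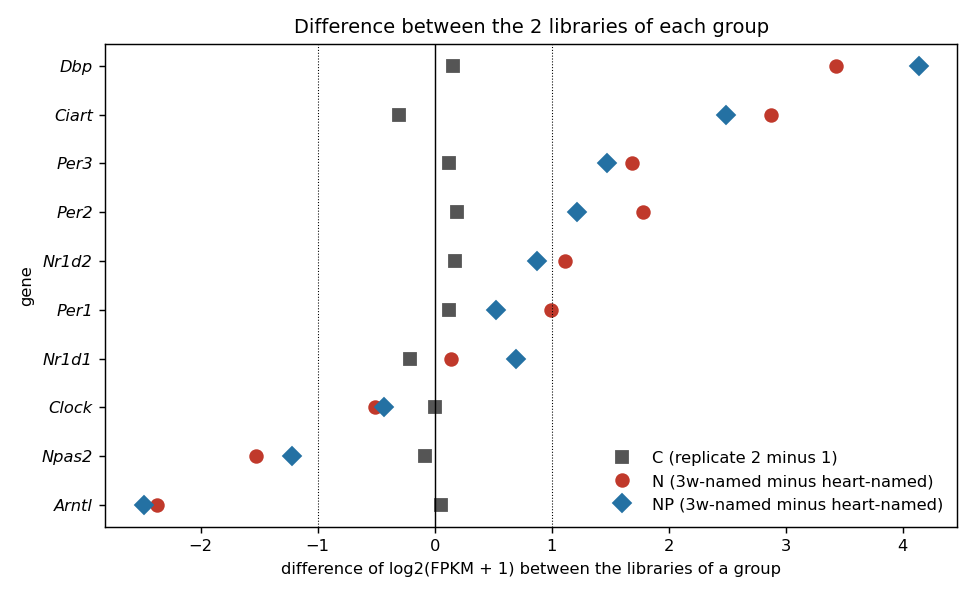
Replicate 2 minus replicate 1 on the log2(FPKM + 1) scale for each member, as 1 point per group: grey squares C, red circles N, blue diamonds NP, where replicate 2 is the 3w-named and replicate 1 the heart-named library. The C points stay within -0.31 and 0.19 of no difference, and the N and NP points of each gene lie on the same side, from -2.48 (Arntl, NP) to 4.14 (Dbp, NP); dotted lines mark a difference of 1.

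Both C libraries, which carry neither name, lay between both heart-named and both 3w-named libraries for 8 of 10 members (all but Per1 and Nr1d1), as they did for 17% of the 6857 genes whose kinds did not overlap. Since the members were chosen for their separation, this is again a description. Set against the mean of the C libraries on the log2(FPKM + 1) scale, Dbp was lower by -2.20 in N1 and -2.51 in NP1 and higher by 1.23 in N2 and 1.62 in NP2. Arntl stood at 0.86 and 0.94 in N1 and NP1 and at -1.52 and -1.54 in N2 and NP2. For Ciart the distance from the C mean was larger in the 3w-named libraries (1.76 and 2.21) than in the heart-named ones (-1.12 and -0.285), and for Nr1d2 it was larger in the heart-named ones (-0.96 and -0.69 against 0.15 and 0.19). The C group therefore stood at no fixed point between the kinds, but nearer to one or the other by gene.

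The order of the members by FPKM also changed. Dbp was the third most abundant member in both C libraries, the seventh in both heart-named and the first in both 3w-named ones, where it exceeded Nr1d1. Arntl was the sixth in both C libraries, the third in N1, the fourth in NP1 and the ninth in both 3w-named libraries. Within a library the ratio of genes is free of its scaling, and the log2 ratio of Arntl to Dbp was -1.34 in C1, -1.45 in C2, 2.03 in N1, -4.58 in N2, 2.54 in NP1 and -5.01 in NP2. Arntl thus exceeded Dbp in the heart-named libraries only. The log2 ratio of Arntl to Nr1d1 was negative in every library, at -3.17, -2.90, -1.56, -4.55, -1.08 and -4.78 in C1, C2, N1, N2, NP1 and NP2. Among the activators, the log2 ratio of Arntl to Clock was -0.32 and -0.27 in C1 and C2, 0.46 and 0.59 in N1 and NP1, and -1.82 and -1.90 in N2 and NP2. The 3 kinds of library, C included, did not overlap in these 3 ratios, nor in that of Arntl to Per2. They did overlap in that of Arntl to Npas2, at 2.23 and 2.42 in C1 and C2, 1.71 and 2.28 in N1 and NP1, and 1.15 and 1.27 in N2 and NP2.

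**Figure D3:**
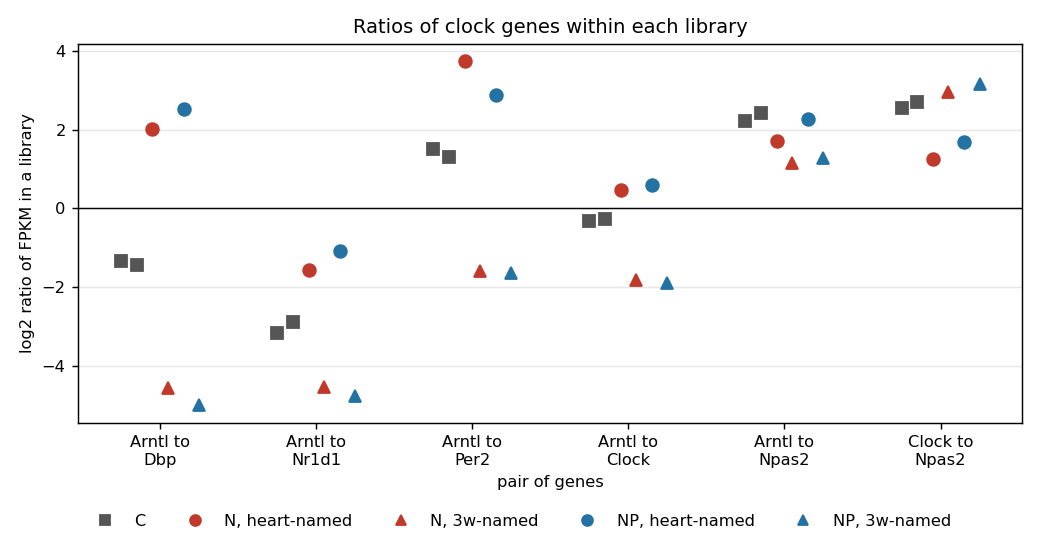
Log2 ratio of FPKM for 6 pairs of clock genes within each library, with 1 point per library; symbols are those of the plot of levels. The ratio of Arntl to Dbp separates the libraries most widely, from 2.54 in NP1 to -5.01 in NP2, with the C libraries at -1.34 and -1.45.

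Likeness between members was described by Pearson's r over the 6 libraries, which share depth and kind of name by group, so that each r rests on few separate points. It was 0.90 to 0.99 among Arntl, Clock and Npas2 and 0.67 to 0.97 among Per1, Per2, Per3, Nr1d2, Ciart and Dbp. Between these sets it was -0.99 to -0.77. Nr1d1 stood apart from both, at -0.59 to -0.33 with the activators and -0.02 to 0.66 with the others. Per3 was closest to Npas2 and Nr1d2 (-0.99 and 0.97), and Clock to Arntl (0.99). Because the members were chosen for differing between the kinds, these values describe that choice and are no test of likeness.

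Among the 1246 other genes that spanned at least 1 on the log2 scale, those with the highest r with Arntl included Ndufs5 (0.99), Zfp395 (0.99), Baiap2 (0.98) and Ypel2 (0.98). Ndufs5, a subunit of respiratory complex I, had the most extreme values of these, at 51.8 and 25.9 FPKM in C1 and C2, 262 and 186 in N1 and NP1, and 0.0617 and 0.0796 in N2 and NP2. The cause of these Ndufs5 values, the assignment of reads included, was not tested. The lowest r with Arntl belonged to Gm10012 (-0.998), 4930549G23Rik (-0.99), Ppifos (-0.99), Bhlhe40 (-0.99) and Kpna2 (-0.99), of which Bhlhe40 is itself a clock repressor. The highest r with Dbp belonged to Coq10b (0.99), Gng10 (0.98), 0610040B10Rik (0.98), 1810022K09Rik (0.97) and 3110009E18Rik (0.97).

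Set beside the names, the diets themselves left the members without a call. N minus C, NP minus N and NP minus C were each fitted with limma over all 12923 genes and all 6 libraries (3 residual degrees of freedom), and 0 of the 10 members passed an adjusted p of 0.05 in any of the 3, where 1.55%, 1.39% and 0.0387% of all genes passed. None of the members reached an unadjusted p of 0.05 either, a mark that 1938, 1039 and 1040 genes reached. The lowest was Nr1d1 in NP minus C, with a difference of -0.56 ± 0.24 (SE) and a limma p of 0.058 (adjusted p = 0.628, both NP libraries below both C libraries). An exact permutation test of 2 against 2 libraries cannot give a p under 0.3333. Since each group's libraries may be technical repeats, these p-values measure the spread between libraries only.

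The width of the intervals shows what these comparisons could have seen. For Dbp the group means were 20.3 ± 1.65 FPKM in C, 26.2 ± 31.9 in N and 33.6 ± 43.6 in NP (SD, n = 2), and N minus C was -0.49 with a 95% interval of -4.35 to 3.38. For Arntl they were 7.71 ± 0.218, 8.41 ± 9.003 and 8.87 ± 9.72 FPKM, and N minus C was -0.33 with an interval of -2.81 to 2.15. For these genes a change with diet of several fold in either direction was thus not detectable. Clock had the narrowest intervals, with N minus C at -0.09 (-0.63 to 0.45) and NP minus N at 0.00 (-0.54 to 0.54). Nr1d1 had the smallest mean difference between the kinds of name. Its means were 63.4 ± 6.61 FPKM in C, 45.8 ± 3.10 in N and 44.0 ± 15.1 in NP, all 4 N and NP libraries lay below both C libraries, and N minus C was -0.46 with an interval of -1.04 to 0.12 (limma adjusted p = 0.437).

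**Figure D4:**
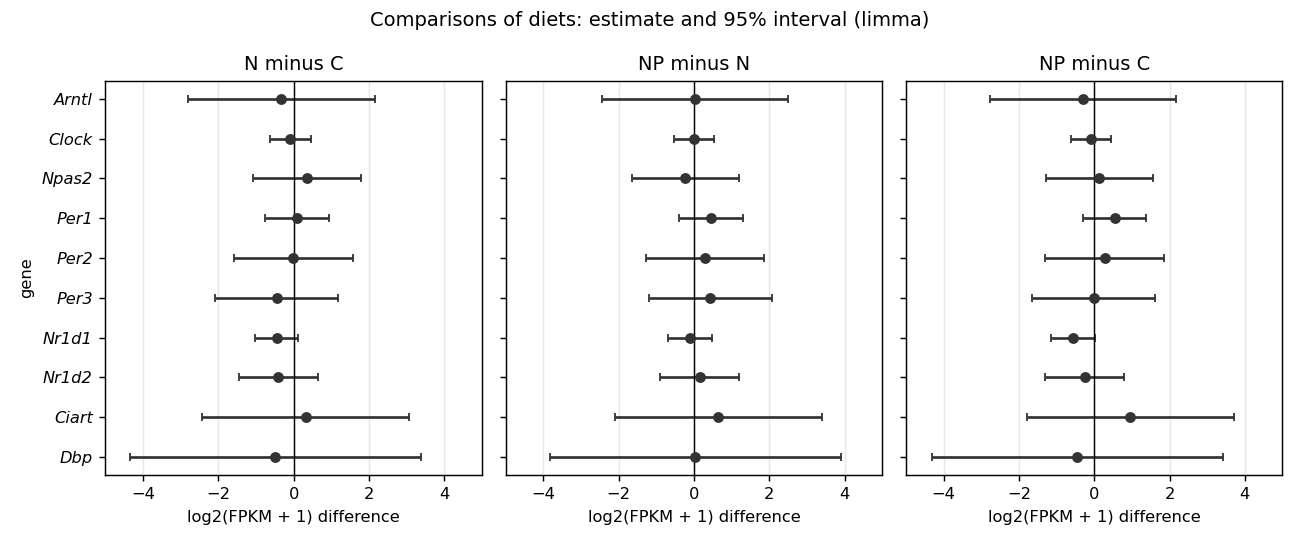
Differences between diets for each member on the log2(FPKM + 1) scale, as the limma estimate (point) with its 95% interval (bar), for N minus C, NP minus N and NP minus C, n = 2 libraries per group. Every interval includes 0, and those of Dbp, Ciart and Arntl are the widest.

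With the kind of name as a term in the N and NP groups, the estimates stayed and the standard errors of the members dropped to between 0.08 and 0.18, yet 0 of 10 members passed in any of the 3 comparisons. The lowest limma adjusted p under this term was 0.0637 (Nr1d2, N minus C), followed by 0.0692 for Per3 and 0.0802 for Arntl in the same comparison and 0.081 for Ciart in NP minus C. Such an estimate sets the C libraries against the midpoint of the kinds, although by the distances given above they stood nearer to one kind for Ciart, Nr1d2, Arntl and Dbp. For Per3 the distances from the C mean were -1.30 and -0.75 in N1 and NP1, and 0.39 and 0.72 in N2 and NP2.

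Pemafibrate was compared with the N diet alone within each kind, with 1 library on each side. NP minus N was largest for Ciart among the heart-named libraries (0.83) and again among the 3w-named ones (0.45). For Arntl it was 0.09 and -0.02, and for Clock -0.04 and 0.04. Dbp had -0.31 in the heart-named and 0.39 in the 3w-named pair, and Nr1d1 -0.38 and 0.18. The Per genes had positive values in both pairs, at 0.68 and 0.21 for Per1, 0.57 and 0.01 for Per2 and 0.54 and 0.33 for Per3. The difference between the pairs, tested with limma on the spread of the 2 C libraries and chosen after the data had been seen, was called for 0 of 10 members and for 0.186% of all genes; the largest, 0.71 ± 0.18 (SE) for Dbp, had an adjusted p of 0.652. With 1 library on each side and 1 residual degree of freedom, this does not show that the pairs were alike.

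Other clock genes were described from a list of 23, of which 21 passed the filter and none was called in a diet comparison. Without overlap and by at least 1, 3 of them were higher in the 3w-named libraries and 1 was lower. Bhlhe40 (DEC1), a repressor that competes for the E-box, was at 17.1 and 17.7 FPKM in C1 and C2, 14.0 in N1, 35.3 in N2, 12.1 in NP1 and 37.2 in NP2. Its mean difference between the kinds was 1.41, and again the C libraries lay between. The relatives of Dbp differed less than Dbp itself: Tef by 1.05, with 21.2 and 31.8 FPKM in N1 and NP1 against 51.1 and 59.4 in N2 and NP2, and Hlf by 1.24, with 2.9996 and 4.91 against 8.93 and 12.3. Hlf also differed between the C libraries, at 4.55 in C1 and 8.37 in C2. Nfil3 (E4BP4), which represses from the same D-box that DBP and its relatives activate, went the other way, with 11.5 and 12.1 FPKM in N1 and NP1 against 4.61 and 4.07 in N2 and NP2, a difference of -1.26. Rora, an activator of the ROR element, overlapped between the kinds. Of the cryptochromes, the partners of the PER proteins, Cry1 was lower by -0.32 without overlap and Cry2 overlapped (mean 0.26). The casein kinases, ubiquitin ligase subunits and other partners were within -0.33 and 0.06 throughout. Over the 21 genes the median size of the difference was 0.14, near the 0.18 of all genes, and differences of at least 1 lay in single genes. Without overlap at any size, 5 of the 21 were higher and 7 lower in the 3w-named libraries, where 25.5% and 27.5% of all genes were.

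**Figure D5:**
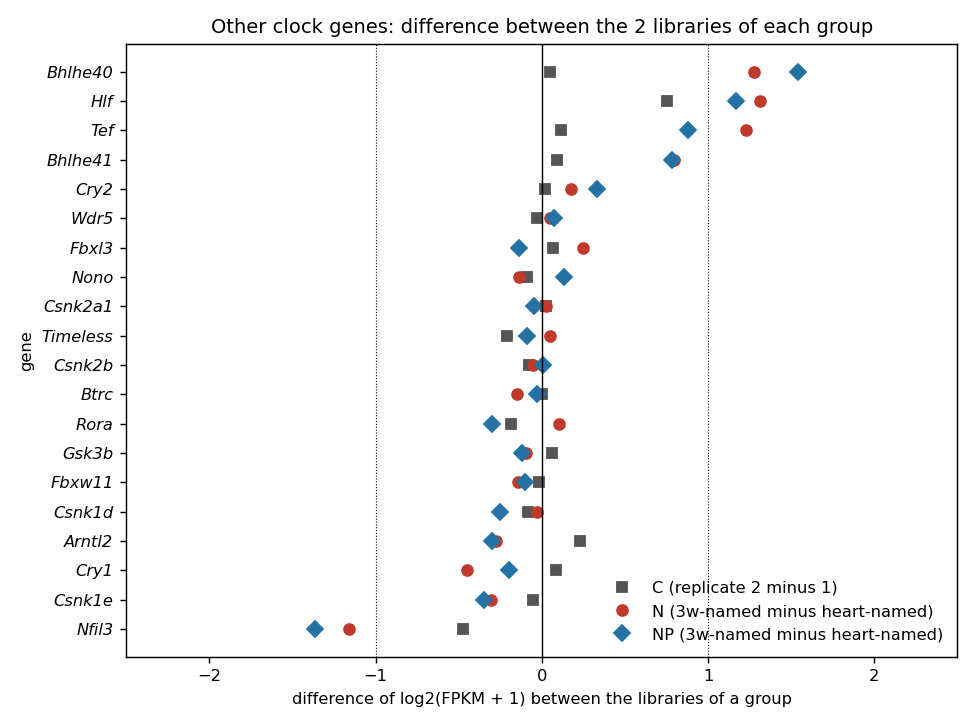
Replicate 2 minus replicate 1 on the log2(FPKM + 1) scale for 20 of the other clock genes that passed the filter, with 1 point per group: grey squares C, red circles N, blue diamonds NP. Bhlhe40, Hlf and Tef lie to the right and Nfil3 to the left in both N and NP, and most of the remaining genes lie near 0.

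Genes known to follow the clock in the heart, a list of 21 of which 20 were tested, gave 1 gene higher and 3 lower in the 3w-named libraries by the same rule, and none was called in a diet comparison. Wee1, a cell cycle kinase with E-boxes in its promoter, was at 1.86 and 3.61 FPKM in N1 and NP1 and 5.70 and 7.81 in N2 and NP2, with 3.72 and 3.86 in the C libraries. Pdk4, the kinase that shuts pyruvate out of oxidation and a target of PPARα, was at 1038 and 1108 FPKM in C1 and C2, 996 in N1, 129 in N2, 338 in NP1 and 89.5 in NP2. Its difference was -2.42, and unlike for most members its C libraries lay above both kinds. Cdkn1a, the cell cycle inhibitor p21, was lower by -1.77 and Ucp3, a mitochondrial carrier, by a mean of -1.27. For Ucp3 the difference was -2.21 in the N group but only -0.32 in the NP group. Its level was 66.5 and 82.2 FPKM in C1 and C2, 67.1 in N1, 13.7 in N2, 19.5 in NP1 and 15.4 in NP2.

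Lists of genes that answer to signals other than the clock were counted in the same way, and none of their genes was called in a diet comparison. Of 11 glucocorticoid targets, 10 were tested and 2 were lower (Angptl4 by -1.95 and Zbtb16 by -1.57), whereas Fkbp5, with -0.45, overlapped between the kinds. Per1 belongs to this list as well as to the members. Of 9 immediate early genes, which respond within minutes to handling and stress, Nr4a1 (1.80) and Atf3 (1.19) were higher and Egr1 (-0.48) and Myc (-0.36) overlapped. For Atf3 the difference was 1.92 in the N group but 0.45 in the NP group, and for Nr4a1 it was 1.95 and 1.65. Of 8 genes that follow temperature, Hspa1b (2.495), Hspa1a (2.21) and Dnajb1 (1.34) were higher; Hspa1b was at 0.479 and 0.335 FPKM in C1 and C2, 0.739 and 0.557 in N1 and NP1, 16.7 in N2 and 3.87 in NP2. Rbm3, a cold-inducible RNA-binding protein, was higher by 0.83, and the heat shock genes Hsp90aa1, Hsph1 and Hspa8 overlapped between the kinds. These 3 were named after their values were seen. The summed atrial markers and some of the stress genes were thus also higher in both 3w-named libraries, as 25.5% of all genes were at any size of difference. Hspa1b, Hspa1a, Dnajb1, Nr4a1 and Atf3 were higher without overlap by a mean of at least 1, where 0.511% of all genes were. The atrial sums differed far more between the C group (179 to 314 FPKM) and the other libraries (3680 to 6219 FPKM) than between the kinds. The part of these genes and of the clock genes in each other was not tested.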

How the data were processed

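The authors sequenced stranded mRNA libraries of 6 samples labelled heart (C, N and NP, 2 each) and deposited 1 table of FPKM values per library, made with TopHat2 2.0.13, Bowtie2 2.2.3, SAMtools 0.1.19 and Cufflinks 2.2.1 on mm10. Cufflinks shares reads between transcripts and strands by a model, and its strand setting and annotation are not given in the sources used here, so genes that overlap or have close copies can trade reads. FPKM are no counts: 72.4% to 78.8% of low values of single-transcript genes came out as whole reads within 0.1 of a read, too few for a count test, and the same values gave the estimates of depth. Groups came from the labels, and the kind of name from the deposited library names.

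From the deposited FPKM, log2(FPKM + 1) was computed for 12923 genes with a mean of at least 0.5, and limma 3.58.1 (R 4.3.3, trend, Benjamini-Hochberg over all genes, threshold 0.05) tested the 3 comparisons of diets in 1 model of 3 groups. In simulated data for N minus C with 200 of 12923 genes changed, 91% of changes of size 1 and 100% of changes of size 2 (log2) were recovered, with 8 other genes called. The simulated spread was the one left after the term for the kind of name, so it lacked the difference between the kinds. These shares therefore do not hold for genes that differ between the kinds, such as Dbp, whose SE in N minus C was 1.57. Other list genes were named by a fixed rule (the 4 per list with the largest difference by name), and like genes by r over libraries. A gene of the clock list and a gene among those like Arntl are not reported here. Members and lists were chosen with earlier results of these data known. Alternatives were another pseudocount, filters, scalings, 1 prior, each library left out, the replicate block, a term for the name and only the groups compared. RefSeq promoters and GENCODE M21 genes are of mm10. Python 3.11.15 was used for tables.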

Additional observations from a re-analysis of the deposited data

How the results depend on the processing

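In no alternative run was a member called in a comparison of diets (limma adjusted p from 0.0637 to 1 for N minus C, 0.147 to 1 for NP minus N and 0.081 to 1 for NP minus C). Depth, 2 libraries per group and the mix of names in N and NP limit what these comparisons can show. Same-numbered libraries deviated together in N and NP, where the number goes with the kind of name, but not in all pairs of groups (Pearson's r of the deviations 0.05 for C with N, 0.12 for C with NP and 0.46 for N with NP; Spearman's rho 0.23, 0.26 and 0.55), so the numbers were not taken to pair the libraries. With the replicate block, 0 members and 328 (N minus C), 200 (NP minus N) and 20 (NP minus C) genes were called.

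The number of genes called moved from 200 (N minus C), 179 (NP minus N) and 5 (NP minus C) as follows; the cause was not tested. A term for the kind of name gave 1100, 301 and 55. The same total per library gave 309 for N minus C and 10 for NP minus C, and moved the median of all genes from -0.03 to 0.12 in N minus C and from -0.01 to 0.12 in NP minus C. Pseudocount 0.1 gave 12 and no filter 0 for NP minus C, and only the groups compared gave 78 for NP minus N. With each library left out they ran from 49 to 183 (N minus C; over 1.5 times fewer without C2, N1 or N2), 67 to 108 (NP minus N; without any library) and 5 to 101 (NP minus C; 101 without C1, 12 without C2 and 14 without NP1). For the contrast of names, 9 members and 1163 genes fell to 2 and 14 with no filter, 5 and 66 with 1 prior and 0 and 8 with only the N and NP libraries, and to 0 to 3 and 8 to 41 with a library left out; pseudocount 0.1 put 296 genes, against 117 apart by at least 1, and 7 members instead of 6, as did quantile normalization and the same median for the members. No member changed its direction between the kinds under any alternative, but sizes moved: pseudocount 0.1 gave -2.86 for Arntl, -2.02 for Npas2, 1.96 for Per2, 2.09 for Per3 and 3.35 for Ciart, and the same total per library gave -2.52 for Arntl and -0.56 for Clock.

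Signs of the uncalled diet differences did change. With the same total per library, Clock went to 0.068, -0.015 and 0.053 (N minus C, NP minus N, NP minus C), Per2 to 0.11 (N minus C) and Per3 to 0.10 (NP minus C), and with pseudocount 0.1 Dbp went to -0.001 (NP minus N). With each library left out in turn, N minus C ran from -1.52 to 0.86 for Arntl, -0.35 to 0.17 for Clock, -0.40 to 1.12 for Npas2, -0.40 to 0.59 for Per1, -0.90 to 0.88 for Per2, -1.30 to 0.39 for Per3, -0.96 to 0.15 for Nr1d2, -1.12 to 1.76 for Ciart and -2.20 to 1.23 for Dbp. In the same way, NP minus N ran from -1.21 to 1.27 for Arntl, -0.25 to 0.26 for Clock, -0.99 to 0.54 for Npas2, -0.053 to 0.94 for Per1, -0.60 to 1.18 for Per2, -0.41 to 1.28 for Per3, -0.45 to 0.25 for Nr1d1, -0.40 to 0.71 for Nr1d2, -0.80 to 2.08 for Ciart and -2.03 to 2.11 for Dbp, and NP minus C ran from -1.54 to 0.94 for Arntl, -0.31 to 0.13 for Clock, -0.47 to 0.75 for Npas2, -0.33 to 0.89 for Per2, -0.75 to 0.72 for Per3, -0.69 to 0.19 for Nr1d2, -0.285 to 2.21 for Ciart and -2.51 to 1.62 for Dbp.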
